A study of Bos taurus with 8 samples.

Results

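Collagen chain genes are the rows of the deposited table whose symbol is COL, a number, A and a number. There were 43 of them among 28709 genes listed, and each was present as a single row. They fall into 11 fibrillar, 6 basement membrane, 5 beaded, 4 transmembrane and 10 fibril-associated chains and 7 network, anchoring or other chains. Counts came from BUTE, an immortalized bovine line of uterine epithelium with a wild-type genotype, made from 1 Holstein dairy cow, so all libraries share 1 donor animal. Before treatment all dishes spent 24 h without serum or steroids in medium with insulin-like growth factor 1 (IGF1), and IGF1 at 50 ng/ml was present during treatment in both groups. The DMSO group (4 libraries) then received the vehicle for 24 h, and the progesterone group (4 libraries) received 10 µM progesterone in its place. Libraries are called by the table's column names, DMSO R1, R3, R7 and R9 for the vehicle and R1, R2, R3 and R6 for progesterone. Those numbers do not match the samples' own replicate numbers. Nothing in the labels states that libraries came from separate cultures, so p-values measure only the spread between these libraries.

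A collagen is a triple helix of 3 chains, each a long run of glycine-led repeats. Fibrillar collagens such as types I, III and V assemble into the cables of stroma, and fibril-associated types such as XII and IX sit on their surface. Type IV forms the sheet of the basement membrane under an epithelium, beaded type VI forms microfibrils beside it, and transmembrane type XVII ties basal epithelial cells to it through the hemidesmosome. In the uterus, stromal cells are the best known source of fibrillar collagen, while the epithelium rests on type IV.

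The 8 libraries held between 23810861 and 32509786 estimated counts. DMSO R7 and R9 stood apart from the other 6, so each comparison is given with all 8 libraries and again without these 2. The latter sets DMSO R1 and R3 against the same 4 progesterone libraries. With all 8 libraries 359 of 13557 genes passed at an adjusted p under 0.05, and without DMSO R7 and R9 162 of 13764 passed, 137 higher and 25 lower (with library size as the only scaling 128, 92 higher and 36 lower). The epithelial label was checked on marker genes. KRT8, a keratin of simple epithelium, was at 1348 to 2789 CPM (estimated counts scaled to a common library total, with TMM factors) and KRT19 at 255 to 706 CPM, but KRT18, the partner of KRT8, at 0.948 to 6.92 CPM. EPCAM was at 0.275 to 2.53 CPM, CDH1, the epithelial cadherin, at 10.5 to 22.7 CPM, and CLDN4, CLDN7 and GRHL2 stayed under 1 CPM in all 8 libraries. VIM, the intermediate filament of mesenchymal cells, was at 5814 to 7467 CPM. MUC1 was at 0.878 to 3.33 CPM and ESRP1 at 0.492 to 3.18 CPM. The line thus held the keratins KRT8 and KRT19 together with high VIM and collagen I. Of 11 epithelial markers 3 were near 0, and KRT18, EPCAM, MUC1 and ESRP1 were also low. The epithelial markers summed to 2826 to 3080 CPM with DMSO and 1742 to 2661 CPM with progesterone. Most of the sum was KRT8, at 2286 to 2789 CPM with DMSO and 1348 to 2107 CPM with progesterone. Log2 fold changes were above 0 for KRT19, KRT7 and CDH1 (0.08, 0.22 and 0.37). They were below 0 for KRT8, KRT18, EPCAM, MUC1 and ESRP1. None of the 8 tested passed in edgeR (4 at an unadjusted p under 0.05, DESeq2 4, voom 0). Over all genes 2.65% passed in edgeR, and the other shares were 26.8%, 13.5% and 2.35%. The part of these markers in the collagen values was not tested.

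Of the 43 chains, 25 had enough counts to be tested, the same 25 with and without DMSO R7 and R9. With all 8 libraries 1 chain was lower with progesterone, 0 were higher and 24 did not pass (edgeR quasi-likelihood test, Benjamini-Hochberg adjusted over all genes). Over all genes tested 2.65% passed, 0.959% lower and 1.69% higher. At an unadjusted p under 0.05 there were 7 chains (28%), against 26.8% of all genes. DESeq2 called 5 of the 25 chains (20%), all lower, against 13.5% of all genes with a DESeq2 adjusted p (6.95% lower). Limma voom called 0, against 2.35% of all genes. The median log2 fold change of the chains was 0.00 and that of all genes -0.01, with 13 chains above 0 and 12 below. Without DMSO R7 and R9 edgeR called 0 of the 25, against 1.18% of all genes (0.182% lower and 0.995% higher), and DESeq2 and voom also called 0, against 4.38% and 0.988% of all genes. There 5 chains (20%) had an unadjusted p under 0.05, against 15.9% of all genes. The median was -0.05, and 0.01 over all genes. As a share of all estimated counts, the 43 chains took 1.39% to 2.35% in the DMSO libraries and 1.2% to 1.37% in the progesterone libraries. The DMSO values without R7 and R9 were 1.47% and 1.39%.

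**Figure D1:**
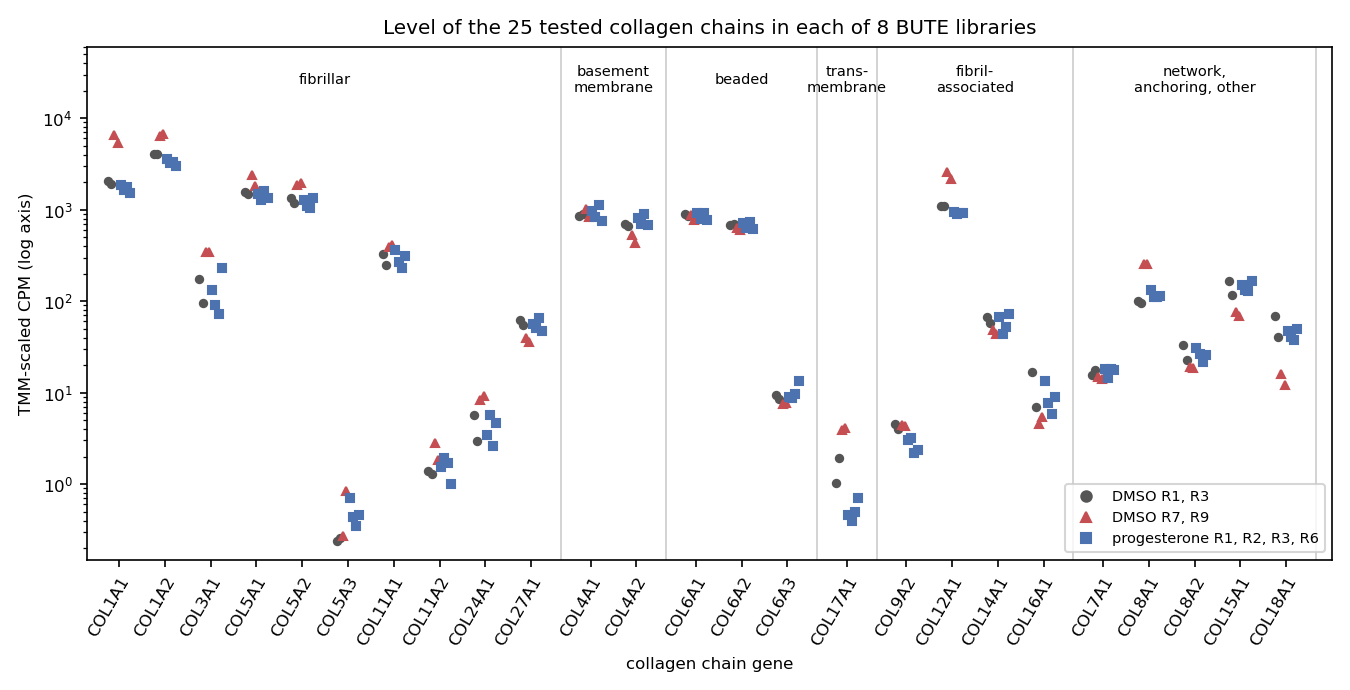
TMM-scaled CPM on a log axis for the 25 tested chains, 1 point per library, grouped by structural class (circles DMSO R1 and R3, triangles DMSO R7 and R9, squares the 4 progesterone libraries). Progesterone libraries lie below all DMSO libraries for COL1A1, COL1A2, COL17A1, COL9A2 and COL12A1, while the triangles stand apart at many chains in either direction.

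The chains whose groups did not overlap were COL1A1, COL1A2, COL17A1, COL9A2 and COL12A1, all lower with progesterone. That is 20% of the 25, against 16.2% of all genes tested (8.22% lower and 7.95% higher). Without DMSO R7 and R9 these 5 were still apart, which follows from the fuller comparison, and COL5A3 and COL8A1 lay above both DMSO libraries. The 7 chains make 28%, against 26.8% of all genes with so few DMSO libraries.

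COL17A1 (Entrez Gene 513804, chromosome 26) encodes collagen XVII, the transmembrane chain of the hemidesmosome. It was at 1.02, 1.91, 3.87 and 4.16 CPM in DMSO R1, R3, R7 and R9. With progesterone it was at 0.458, 0.396, 0.492 and 0.703 CPM in R1, R2, R3 and R6. Every progesterone library was thus below every DMSO library, but R7 and R9 were also above R1 and R3. The means were 2.74 ± 1.52 and 0.512 ± 0.133 CPM (SD, n = 4 each), a 5.33-fold drop (log2 fold change -2.41 ± 0.46 SE, edgeR adjusted p = 0.0307). These are small counts, from 10.1 to 16.5 estimated reads in the progesterone libraries. Without DMSO R7 and R9 it was 2.83-fold lower and did not pass (-1.50 ± 0.39 SE, edgeR adjusted p = 0.0910). The call was also lost when any 1 of DMSO R7, DMSO R9 or the 4 progesterone libraries was left out, at log2 fold changes of -2.59 to -2.14 and edgeR adjusted p of 0.0770 to 0.113, and with limma voom (0.0625).

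Markers of basal or squamous epithelium, where collagen XVII is best known, were low, and of 8 markers 2 could be tested and KRT6A passed. Their summed level was 6.01 to 23.7 CPM in the DMSO libraries and 1.51 to 2.88 CPM with progesterone, and 5 of 8 (KRT15, TP63, KRT17, DSG3 and LGALS7) stayed under 1 CPM in every library. In DMSO R7 and R9 nearly all of the sum was KRT6A, a keratin of stressed or stratified epithelium. It was at 2.77, 6.10, 14.4 and 20.9 CPM with DMSO and 0.795 to 1.72 CPM with progesterone. KRT6A was lower in both comparisons (edgeR adjusted p = 0.0331 and 0.0366). In each comparison DESeq2 called 1 marker of this list, against 13.5% and 4.38% of all genes, and limma voom called 0. Whether the KRT6A call holds with single libraries left out was not examined. KRT5, the other tested marker, did not pass (log2 fold change -1.03, edgeR adjusted p = 0.134). It was highest in DMSO R1 at 1.57 CPM, against 0.746 and 0.832 CPM in R7 and R9 and 0.316 to 0.642 CPM with progesterone. Untested KRT14 was at 0.184 to 1.25 CPM with DMSO and 0.0351 to 0.153 CPM with progesterone. Untested TP63 was also lower in every progesterone library than in every DMSO library. For KRT15, KRT17, DSG3 and LGALS7 the groups overlapped. LGALS7 had its highest values, 0.351 and 0.786 CPM, in progesterone R3 and R6. In bulk RNA, fewer cells of a type and less RNA per cell cannot be told apart, and the part of these markers in the change of COL17A1 was not tested. The other 3 transmembrane chains, COL13A1, COL23A1 and COL25A1, had at most 17.8 estimated counts in a library and were not tested.

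**Figure D2:**
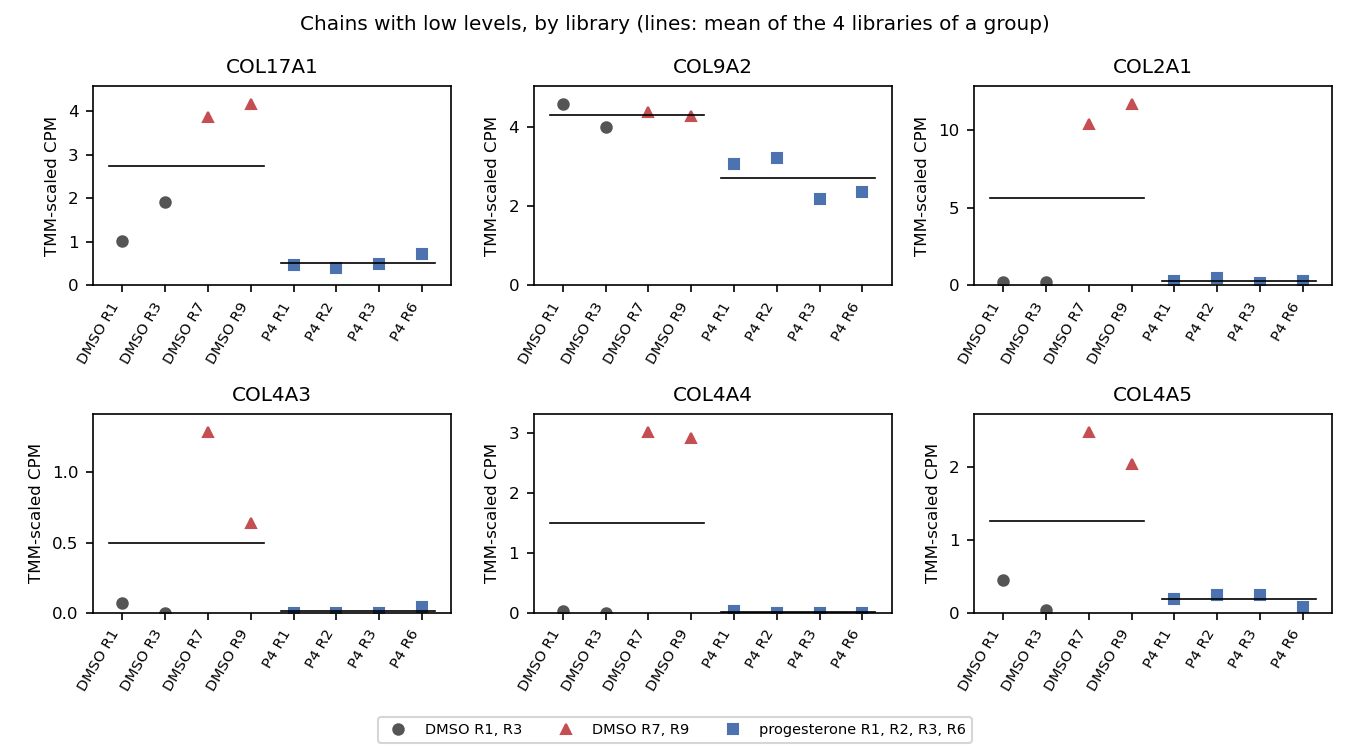
TMM-scaled CPM in each library for 6 chains with low levels, with a line at the mean of the 4 libraries of a group. COL17A1 and COL9A2 are lower in all 4 progesterone libraries, whereas COL2A1, COL4A3, COL4A4 and COL4A5 are raised in DMSO R7 and R9 alone.

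Fibrillar chains form the main load-bearing fibrils. Of 10 tested, 0 passed in edgeR with all 8 libraries (3 at an unadjusted p under 0.05, DESeq2 2, voom 0) and 0 without DMSO R7 and R9 (1, 0 and 0). Over all genes 2.65% passed in edgeR with all 8 libraries, and the other shares were 26.8%, 13.5% and 2.35%. Without R7 and R9 1.18% passed, and the others were 15.9%, 4.38% and 0.988%. With all 8 libraries, log2 fold changes of the fibrillar chains were below 0 for 8 of 10, with a median of -0.38. Without DMSO R7 and R9 the median was -0.06, with 7 of 10 below 0. The summed level of the class was 9613, 9026, 18008 and 16545 CPM with DMSO and 7669 to 8777 CPM with progesterone. The sums did not overlap, but DMSO R1 and R3 lay far closer to progesterone than to R7 and R9.

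COL1A2 (282188, chromosome 4), the α2 chain of collagen I, was at 4097, 4056, 6376 and 6652 CPM in DMSO R1, R3, R7 and R9. With progesterone it was at 3597, 3225, 3283 and 2970.4 CPM. It was 1.62-fold lower over all libraries (-0.70 ± 0.18 SE on the log2 scale, with an edgeR adjusted p of 0.0627) and 1.24-fold lower without DMSO R7 and R9 (-0.31 ± 0.11 SE, adjusted p = 0.192). The 95% interval of the latter was -0.54 to -0.07. COL1A1 (282187, chromosome 19), the α1 chain, was at 2046, 1928, 6553.5 and 5295 CPM with DMSO and 1851, 1647, 1780.1 and 1516 CPM with progesterone. The DMSO libraries split into a low and a high pair, and the progesterone libraries lay just under the low pair. Its log2 fold change was -1.22 ± 0.39 SE with all libraries (edgeR adjusted p = 0.102) and, without DMSO R7 and R9, -0.21 ± 0.11 SE (0.368). Which DMSO libraries entered decided the call for both chains. Leaving out DMSO R1 gave -0.80 for COL1A2 (edgeR adjusted p = 0.0239) and -1.43 for COL1A1 (0.0373), and leaving out DMSO R3 gave -0.80 (0.0387) and -1.44 (0.0483). More genes of any kind passed in these settings. There were 1782 of 13700 without DMSO R1 and 795 of 13745 without DMSO R3, against 359 of 13557 with all libraries. DESeq2 on all 8 libraries called both (adjusted p = 0.00279 and 0.0391).

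Fibroblast markers summed to 13459, 13725, 20751 and 19195 CPM with DMSO and 12288 to 13473 CPM with progesterone. This sum includes COL1A1, COL1A2 and COL3A1, so it is no separate readout beside collagen I. Of 10 tested markers none passed in edgeR (5 at an unadjusted p under 0.05, DESeq2 3, voom 0). Over all genes 2.65% passed in edgeR, and the other shares were 26.8%, 13.5% and 2.35%. In both R7 and R9, 6 of the 10, these 3 chains included, were above all other libraries, against 25.2% of all genes tested. DCN and PDGFRB were below all others there, against 24.0% of all genes. VIM was at 5814 to 6816 CPM with DMSO and 6562 to 7467 CPM with progesterone. Of the markers, DPT and TCF21 stayed under 1 CPM in every library. The part of these genes in the collagen I values was not tested.

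COL5A1 and COL5A2, the chains of collagen V that start collagen fibrils, were at 1291 to 2409 and 1049.7 to 1953 CPM. Both were highest in DMSO R7 and R9, and the groups overlapped. Their log2 fold changes were -0.35 and -0.42 with all libraries (edgeR adjusted p = 0.187 and 0.155) and -0.07 for each without R7 and R9. COL3A1, the chain of collagen III, ranged from 72.8 to 233 CPM with progesterone and from 95.5 to 342 CPM with DMSO. Its 95% interval without R7 and R9, -1.41 to 1.38, was the widest of the 25 chains, with a log2 fold change of -0.01. Progesterone R6 at 233 CPM was above DMSO R1 and R3 at 174 and 95.5 CPM. COL11A1, a minor fibrillar chain that joins collagen II and V fibrils, was at 228 to 407 CPM and COL27A1 at 35.6 to 65.0 CPM. Neither passed (log2 fold changes of -0.21 and 0.20, and 0.06 and -0.07 without R7 and R9). The other 3 tested fibrillar chains, COL5A3, COL11A2 and COL24A1, stayed under 10 CPM. COL5A3 had the highest log2 fold change of the chains without R7 and R9 (0.99 ± 0.50 SE, edgeR adjusted p = 0.370), from 0.239 and 0.257 CPM to between 0.351 and 0.703 CPM.

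**Figure D3:**
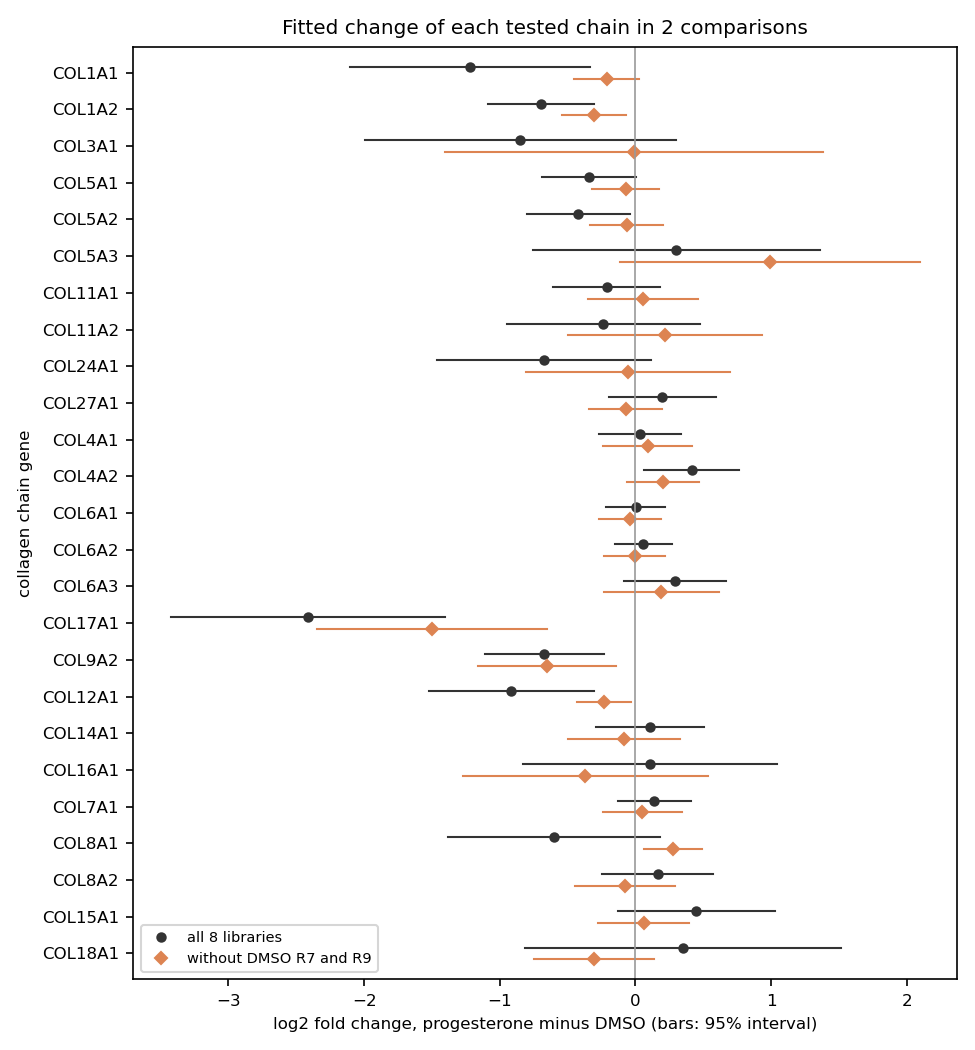
Log2 fold change (progesterone minus DMSO) of the 25 tested chains with its 95% interval, with all 8 libraries (circles) and without DMSO R7 and R9 (diamonds). For COL1A1, COL12A1 and COL17A1 the diamond is closer to 0 than the circle, for COL9A2 both lie at nearly the same value, and for COL8A1 they lie on opposite sides of 0.

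Among fibril-associated chains, 0 of 4 tested passed in edgeR with all 8 libraries (2 at an unadjusted p under 0.05, DESeq2 2, voom 0) and 0 without DMSO R7 and R9 (2, 0 and 0). Over all genes 2.65% passed in edgeR with all 8 libraries, and the other shares were 26.8%, 13.5% and 2.35%. Without R7 and R9 1.18% passed, and the others were 15.9%, 4.38% and 0.988%. COL12A1 (359712, chromosome 9) encodes collagen XII, which links collagen I fibrils to their surroundings. It was at 1088, 1089, 2597 and 2144 CPM with DMSO and 942, 891, 911 and 926 CPM with progesterone. The progesterone values spanned a narrow range just below DMSO R1 and R3. On the log2 scale the difference was -0.91 ± 0.27 SE with all libraries (edgeR adjusted p = 0.0851) and -0.23 ± 0.09 SE without R7 and R9 (0.240). Leaving out DMSO R1 or DMSO R3 brought the edgeR adjusted p to 0.0275 and 0.0428 (log2 fold change -1.08 in each). In those settings 1782 of 13700 and 795 of 13745 genes passed.

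COL9A2 (505942, chromosome 3), a chain of the cartilage collagen IX, was named after its values were seen. It was at 4.57, 4.00, 4.38 and 4.27 CPM with DMSO and 3.06, 3.21, 2.18 and 2.36 CPM with progesterone. Here DMSO R7 and R9 lay between R1 and R3. Its log2 fold change hardly moved with the choice of DMSO libraries (-0.67 ± 0.20 SE with all, -0.65 ± 0.23 SE when R7 and R9 were left out) and passed in neither (edgeR adjusted p = 0.0810 and 0.202). DESeq2 on all libraries called it (adjusted p = 0.0220). Collagen IX also needs COL9A1 and COL9A3, which had at most 3.02 and 4.91 estimated counts in a library. COL14A1 was at 43.7 to 72 CPM and COL16A1 at 4.58 to 16.6 CPM, with log2 fold changes of 0.11 and 0.10 and, without R7 and R9, of -0.08 and -0.37. Neither passed.

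Of the 6 basement membrane chains 2 could be tested and 4 had too few counts. COL4A1 (282191, chromosome 12) and COL4A2 (508632, chromosome 12) form the common collagen IV trimer and lie next to each other. COL4A1 was at 859, 894, 1026 and 835 CPM with DMSO and 977, 822, 1138 and 757 CPM with progesterone, with no separation of the groups (log2 fold change 0.03 ± 0.14 SE). COL4A2 was at 691, 664, 533 and 429 CPM with DMSO and 818, 702, 892 and 678 CPM with progesterone. DMSO R7 and R9 were the lowest of the 8, and progesterone R6 fell between DMSO R1 and R3. COL4A2 had a log2 fold change of 0.42 ± 0.16 SE with all libraries (edgeR adjusted p = 0.133) and of 0.20 ± 0.12 SE without R7 and R9 (0.454). Neither chain passed in either comparison, and DESeq2 and voom called 0 in both. With all libraries 1 of the 2 had an unadjusted p under 0.05, against 26.8% of all genes. Without R7 and R9 0 did, against 15.9%.

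The chains COL4A3, COL4A4 and COL4A5 form the collagen IV trimer of specialized basement membranes. They had counts mainly in DMSO R7 and R9 and did not reach the minimum for a test. COL4A4 had 88.8 and 77.3 estimated counts in DMSO R7 and R9 and at most 1.08 in each of the other 6 libraries. COL4A3, its neighbour on chromosome 2, had 37.7 and 16.8 in those 2 libraries and at most 2.01 elsewhere. COL4A5 on chromosome X had 73.1 and 54.0, and 1.01 to 12.8 elsewhere. COL4A6, its neighbour there, had at most 1.04 in a library. The 3 chains were thus raised together in the same 2 libraries of the vehicle group. With progesterone no count of the 3 exceeded 6.82.

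Beaded chains showed little difference between groups. COL6A1 (511422, chromosome 1) and COL6A2 (282194, chromosome 1), neighbouring genes of collagen VI, were at 763 to 914 and 600 to 737 CPM over the 8 libraries. Their log2 fold changes were 0.00 ± 0.10 and 0.06 ± 0.09 SE with all libraries, with 95% intervals of -0.21 to 0.22 and -0.15 to 0.27. Without R7 and R9 they were -0.04 and -0.01. COL6A3, the third chain of the main collagen VI molecule, was at 7.50 to 9.49 CPM with DMSO and at 9.05, 8.68, 9.55 and 13.4 CPM with progesterone, the last value in R6 (log2 fold change 0.29 ± 0.17 SE, edgeR adjusted p = 0.291). None of the 3 had an unadjusted p under 0.05 in either edgeR comparison, against 26.8% and 15.9% of all genes. DESeq2 and voom called 0 of them. COL6A5 and COL28A1 had at most 1.96 estimated counts in a library.

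**Figure D4:**
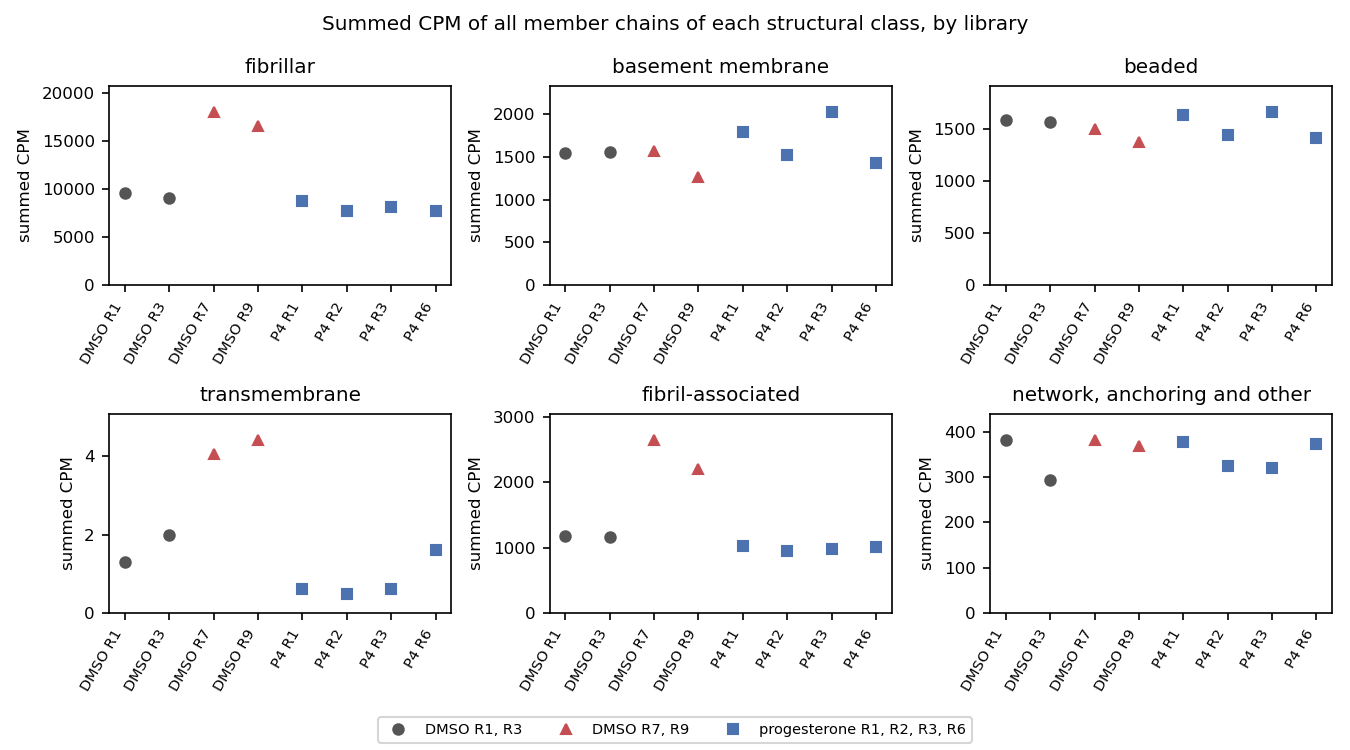
Summed TMM-scaled CPM of all chains of each structural class in each library. Fibrillar, fibril-associated and transmembrane sums are highest in DMSO R7 and R9, while the beaded and basement membrane sums are lowest in DMSO R9.

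None of the 5 tested network, anchoring and other chains passed. COL8A1 (538564, chromosome 1), a chain of the short-chain collagen VIII, was at 99.4, 95.5, 257 and 256 CPM with DMSO and 131, 111, 111 and 114 CPM with progesterone. The progesterone libraries lay above DMSO R1 and R3 and below R7 and R9, so the direction depended on which DMSO libraries entered. The log2 fold change was -0.60 ± 0.34 SE with all libraries (edgeR adjusted p = 0.290) and 0.28 ± 0.10 SE without R7 and R9 (0.192). COL8A2, its partner, was at 18.6 to 32.9 CPM, lowest in R7 and R9. COL15A1 and COL18A1, whose products sit between basement membrane and stroma and release endostatin-type fragments, were also low there. COL18A1 (508076, chromosome 1) was at 68.7, 40.7, 16.1 and 12.1 CPM with DMSO and 37.6 to 50.0 CPM with progesterone. COL15A1 was at 165, 116, 75.6 and 68.5 CPM with DMSO and 131 to 166 CPM with progesterone. Log2 fold changes were 0.45 for COL15A1 and 0.35 for COL18A1 with all libraries, and 0.06 and -0.31 without R7 and R9. COL15A1 passed when DMSO R1 was left out (0.74, edgeR adjusted p = 0.0326), a setting in which 1782 of 13700 genes passed. COL7A1, the anchoring fibril chain, stayed between 14.0 and 18.0 CPM. Of the 5 tested chains of this class 0 passed in either edgeR comparison, and DESeq2 and voom called 0. At an unadjusted p under 0.05 there were 0 with all libraries, against 26.8% of all genes. Once R7 and R9 were left out there was 1, against 15.9%.

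Chains that build 1 collagen type together were compared as ratios of CPM within each library. Transcript lengths are not given in the sources used here, so a ratio shows only whether it differs between libraries, not the proportion of molecules. These ratios were chosen after the values were seen, and none was tested. COL1A1 over COL1A2 was 0.499 and 0.475 in DMSO R1 and R3 and 0.510 to 0.542 with progesterone, but 1.03 and 0.796 in DMSO R7 and R9. COL4A1 over COL4A2 was 1.24 and 1.35 in DMSO R1 and R3, 1.12 to 1.28 with progesterone, and 1.93 and 1.95 in R7 and R9. COL8A1 over COL8A2 was 13.4 and 13.8 in R7 and R9 and 3.02 to 5.12 in the other 6. For types I, IV and VIII, R7 and R9 thus lay above the other 6 libraries. No such split was seen for types V and VI. COL6A1 over COL6A2 stayed between 1.23 and 1.37 in all 8, and COL5A1 over COL5A2 between 0.941 and 1.53 with no separation.

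**Figure D5:**
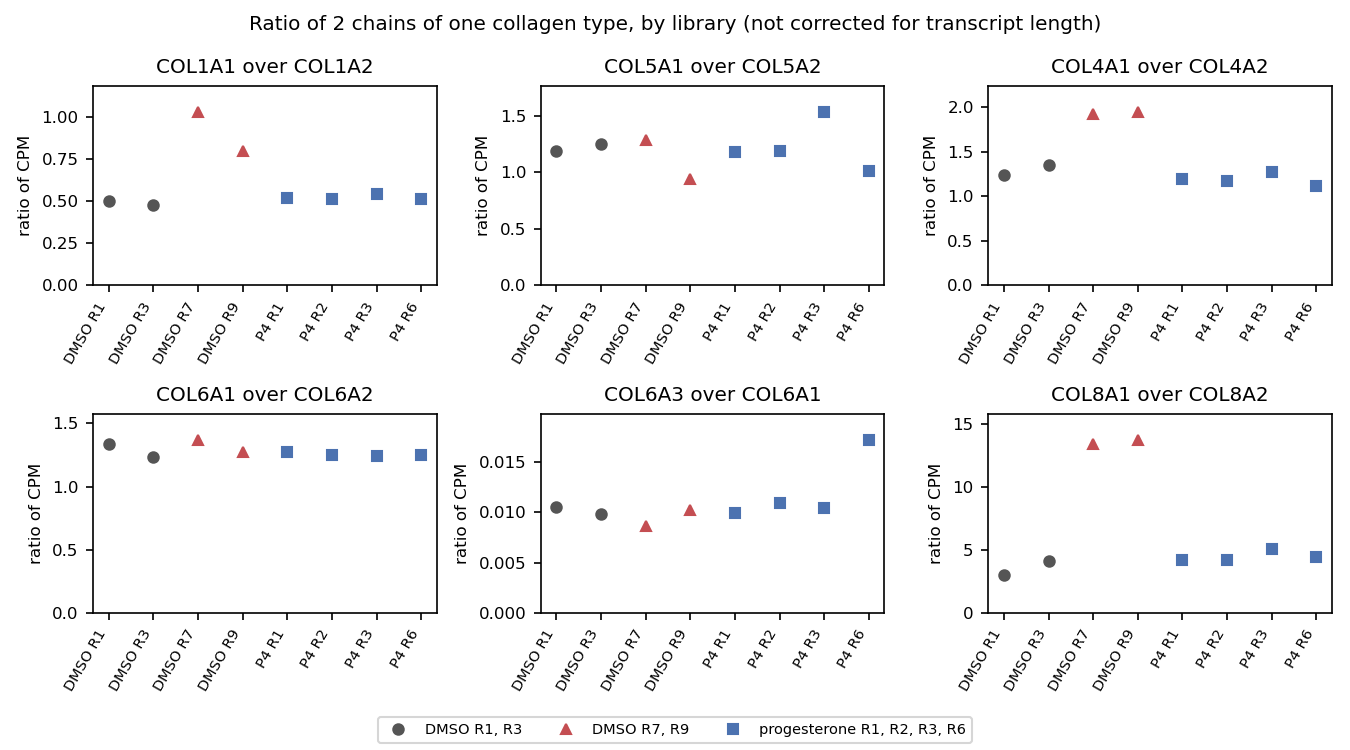
Ratio of the CPM of 2 chains of the same collagen type in each library, not corrected for transcript length. The ratios for types I, IV and VIII stand apart in DMSO R7 and R9, and that for COL6A1 over COL6A2 is between 1.23 and 1.37 throughout.

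DMSO R7 and R9 stood apart from the other 6 libraries at many chains. Of the 25 tested chains 10 were above all other libraries in both (40%) and 7 below in both (28%), against 25.2% and 24.0% of all genes tested, and together 68% against 49.2%. The 10 were 7 fibrillar chains with COL17A1, COL12A1 and COL8A1, and the 7 below were COL27A1, COL4A2, COL6A3, COL16A1, COL8A2, COL15A1 and COL18A1. Among untested chains COL2A1 (407142, chromosome 5), the cartilage collagen, was at 10.4 and 11.7 CPM there and at 0.105 to 0.476 CPM in the other 6. The row annotated as collagen α1(II) chain-like, which could share reads with COL2A1, was at 2.76 to 4.67 CPM and not raised in R7 and R9. Total counts of these 2 libraries, 30299567 and 27302364, lay within the range of the others, and 17625 and 17532 genes had a count in them against 16545 to 16766. Their part in the collagen values was not tested. The remaining 14 untested chains had at most 0.744 CPM in any library.

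Other genes of the pathway were taken from lists by role. Of 17 tested genes of collagen folding and modification 1 rose, P4HA3 (414348, chromosome 15), a catalytic subunit of the prolyl hydroxylase that stabilizes the triple helix. It was at 1.16, 1.21, 2.24 and 3.18 CPM with DMSO and 34.4, 11.4, 23.7 and 20.2 CPM after progesterone, 11.5-fold higher (3.53 ± 0.42 SE on the log2 scale, with an edgeR adjusted p of 0.00784, and 4.25 and 0.0110 when R7 and R9 were left out). That call without R7 and R9 was lost when DMSO R1, DMSO R3 or progesterone R6 was also left out (edgeR adjusted p = 0.202, 0.319 and 0.0532), with no filter on low counts (0.0775) and with limma voom (0.0781). The log2 fold change in these 5 settings was 4.16 to 4.29. A sister subunit, P4HA2, lay on the other side of 0 at -0.45 ± 0.10 SE (edgeR adjusted p = 0.0520), with all 4 progesterone libraries below all DMSO libraries. P4HA2 passed without DMSO R1 (-0.50, 0.0240) or without R3 (-0.46, 0.0482), settings in which 1782 of 13700 and 795 of 13745 genes passed. SERPINH1, the collagen chaperone, was at 961 to 1740.2 CPM with DMSO and 867 to 958 CPM with progesterone (-0.58 and, without R7 and R9, -0.10). Only P4HA3 of this list passed with all libraries, against 2.65% of all genes. At an unadjusted p under 0.05 there were 7 of the 17, DESeq2 called 4 and voom 1. Over all genes those shares were 26.8%, 13.5% and 2.35%.

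Among 10 genes of procollagen processing and crosslinking, 10 of secretion, 8 receptors, 6 fibril-binding proteoglycans and 3 collagen-cleaving proteases, none passed in edgeR with all libraries. At an unadjusted p under 0.05 there were 5, 4, 1, 1 and 1, DESeq2 called 3, 2, 1, 1 and 1, and voom 0 in each. Over all genes those shares were 26.8%, 13.5% and 2.35%. LOX, the crosslinking lysyl oxidase, was at 563, 524, 1185 and 828 CPM with DMSO and 424 to 515 CPM with progesterone, lower in all 4 (-0.76 ± 0.23 SE on the log2 scale, with an edgeR adjusted p of 0.0900, and -0.23 without R7 and R9). It passed without DMSO R1 (-0.88, 0.0391) or without R3 (-0.90, 0.0445), settings in which 1782 of 13700 and 795 of 13745 genes passed. PCOLCE, which enhances procollagen C-proteinase, was at 8.55 to 11.3 CPM with DMSO and 11.8 to 16.9 CPM with progesterone (0.51 ± 0.15 SE, 0.0803).

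Genes of the hemidesmosome, which work with COL17A1, were also measured. Of 9 tested, 1 passed in edgeR with all libraries, as lower, and is not described here. At an unadjusted p under 0.05 there were 4, DESeq2 called 3 and voom 1. Over all genes these shares were 2.65%, 26.8%, 13.5% and 2.35%. The median log2 fold change was 0.13. ITGB4 (0.38), PLEC (0.15), COL7A1 (0.14), LAMA3 (0.13) and DST (0.05) lay above 0 and did not pass. ITGB4 was lowest in DMSO R7 and R9, and stood at 0.08 once these were left out. LAMB3, a laminin chain, was at 0.845 to 1.48 CPM with DMSO and 0.457 to 0.713 CPM after progesterone and missed the threshold (-0.84, edgeR adjusted p = 0.125). ITGA6, the integrin subunit of the hemidesmosome, was lower in all 4 progesterone libraries (-0.29, 0.0819), and the tetraspanin CD151 higher in all 4 (0.35, 0.0665). Neither passed in edgeR with all libraries. DESeq2 called both (adjusted p = 0.00869 and 0.00270), as it did 13.5% of all genes. CD151 also passed in edgeR without DMSO R1 (0.38, 0.0439), where 1782 of 13700 genes passed. Of 11 basement membrane partners of collagen IV, 5 had an unadjusted p under 0.05 in edgeR, DESeq2 called 5 and voom 1. Over all genes those shares were 26.8%, 13.5% and 2.35%. The DESeq2 calls included LAMC1 (-0.42), LAMA1 (-4.34) and PXDN (0.66). Without DMSO R7 and R9 DESeq2 called none of these genes (-0.16, 0.11 and 0.29). LAMA1 was at 258 and 267 CPM in DMSO R7 and R9 and at 3.61 to 9.64 CPM in all other libraries. In edgeR 1 of the 11 passed, against 2.65% of all genes. It was nidogen NID1 (534319, chromosome 28), which bridges collagen IV and laminin. NID1 was at 179, 147, 120 and 105 CPM with DMSO and 314, 197, 264 and 303 CPM with progesterone. That was 1.96-fold higher (0.97 ± 0.19 SE, edgeR adjusted p = 0.0331, and 0.74 and 0.0848 when R7 and R9 were left out). The call was lost without DMSO R7, DMSO R9, progesterone R1, R3 or R6 (0.0803 to 0.103).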

How the data were processed

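Stranded poly(A) libraries were made, per the labels' protocols. The authors made the values before they deposited them as estimated counts per gene, in 1 table whose name says they are length normalized; how is unstated. Per the submitters' processing notes, bcl2fastq, Salmon 1.4.0 and ARS-UCD1.2 were used, roles not recorded. Here the estimated counts were rounded, filtered by filterByExpr and scaled by TMM. The test was edgeR's quasi-likelihood F test (4.0.16, with R 4.3.3, two-sided, robust), group as sole term, Benjamini-Hochberg over all genes tested. CPM are TMM-scaled, and SE is the log2 fold change over the square root of F. Other settings included DESeq2 1.42.0 and limma voom 3.58.1. Scripts were tested on simulated counts. The members and lists were chosen with earlier results of these data known. Named chains passed, averaged at least 10 CPM, or were COL1A2 or COL17A1, and the low chains and COL9A2 were added after their values were seen. Of each pathway list the 4 genes with the smallest p could be named, and not all are described; 1 result is not reported here. Library pairs within groups differed beyond sampling noise (chi-square per degree of freedom at least 14.8), so none was merged. Neighbouring genes come from the RefSeq table of ARS-UCD2.0, without coordinates.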

Additional observations from a re-analysis of the deposited data

Results flagged for a closer look

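In 68 groups of 4 libraries (named chains, class sums and chain ratios), 7 had 1 library far from the other 3 by Dixon's gap test at 95%; chance alone gives about 1 in 20. Progesterone R2 was low for COL7A1 at 14.4 CPM, against 17.8 to 18.0. Progesterone R1 was high for COL8A1 at 131 CPM, against 111 to 114. Progesterone R3 was high for COL1A1 over COL1A2 at 0.542, against 0.51 to 0.514. Progesterone R6 was high for COL6A3 over COL6A1 at 0.0172, against 0.00994 to 0.0109, and for the summed transmembrane chains at 1.61 CPM, against 0.476 to 0.611. In that library COL13A1, a transmembrane chain, was at 0.744 CPM. DMSO R9 was low for the summed basement membrane chains at 1269 CPM, against 1550 to 1566. DMSO R3 was low for the summed network, anchoring and other chains at 293 CPM, against 370 to 383.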

How the results depend on the processing

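With all 8 libraries, the number of genes passing was 359, and it was 1830 with DESeq2, 27 at a threshold of 0.01 and 42 to 1782 leaving out 1 library in turn. The 1782 came without DMSO R1, and leaving out DMSO R3 gave 795. The chains passing were 1, and 5 with DESeq2, 0 with limma voom, 0 at 0.01 and 0 to 6 leaving out 1 library. Leaving out DMSO R1 brought COL2A1 into the test and it passed as lower, and leaving out DMSO R3 did so for COL4A5. Both met the filter only with the help of their high values in DMSO R7 and R9. These passes therefore restate those values and are no separate result for progesterone. Without DMSO R7 and R9, 162 genes passed, and 326 with no filter on low counts, 568 with DESeq2, 41 at 0.01 and 19 to 178 leaving out 1 more library. The chains passing there were 0 under each setting except the replicate block. The median log2 fold change of the chains with all libraries was -0.21 with no filter and -0.21 with a mean of at least 1 CPM, and -0.34 to 0.011 leaving out 1 library. Without DMSO R7 and R9 it was -0.17 to 0.11. The cause of these shifts was not tested. With 1 DMSO library left, that library is assumed to vary like the other group.

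A replicate block used the column numbers, of which the groups share only R1 and R3, and left 1 residual degree of freedom. The difference R1 minus R3 correlated at 0.357 between groups over all genes and at 0.652 over the chains. With 2 shared numbers and no label that ties them, whether they pair the libraries was not settled. With the block 2531 of 13557 genes passed with DMSO R7 and R9 and 2001 of 13764 without them. In each, 9 of 25 chains passed, 3 higher (COL4A1, COL4A2 and COL8A1) and 6 lower (COL1A2, COL3A1, COL9A2, COL12A1, COL17A1 and COL18A1). With all libraries the block turned the direction for COL5A1 (0.031), COL11A1 (0.029), COL14A1 (-0.081), COL8A1 (0.31), COL8A2 (-0.086) and COL18A1 (-0.34). Without R7 and R9 it did so for COL5A1 (0.040), COL27A1 (0.063), COL6A1 (0.058), COL6A2 (0.088) and LAMA1 (-0.28).

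Other changes of direction were near 0 or in single libraries. COL6A1 was -0.00016 with a mean of at least 1 CPM and -0.00037 with voom. Leaving out 1 library with all others kept, log2 fold changes were -0.082 to 0.12 for COL4A1, -0.045 to 0.049 for COL6A1 and -0.0028 to 0.24 for COL14A1. The same without DMSO R7 and R9 gave -0.45 to 0.47 for COL3A1, -0.17 to 0.012 for COL5A2, -0.14 to 0.26 for COL11A1 and -0.18 to 0.0081 for COL27A1. It gave -0.043 to 0.16 for COL4A1, -0.067 to 0.021 for COL6A2, -0.21 to 0.033 for COL14A1 and -0.035 to 0.12 for COL7A1. It gave -0.33 to 0.19 for COL8A2, -0.18 to 0.32 for COL15A1, -0.65 to 0.11 for COL18A1 and -0.33 to 0.72 for LAMA1. Of the 18 untested chains 14 had at most 17.8 counts in a library, and 4 had higher counts in DMSO R7 and R9 alone, too few libraries for the filter.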

Other observations

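Some matrix genes outside the collagen family, named after their values were seen, were raised in the same 2 vehicle libraries as COL2A1 and COL4A3, COL4A4 and COL4A5. LAMA1, the laminin chain of embryonic basement membranes, was at 258 and 267 CPM in DMSO R7 and R9 and at 3.61 to 9.64 CPM in the other 6 libraries. LAMA4, a laminin chain of vessel and muscle basement membranes, was at 46.3 and 48.9 CPM there and at 0.307 to 1.74 CPM elsewhere. ADAMTS2, the protease that trims the N-terminal end of procollagen I, was at 48.9 and 45.8 CPM there and at 4.6 to 17.0 CPM elsewhere, highest of these in progesterone R6. DCN, the small proteoglycan decorin that binds collagen I fibrils, went the other way, at 268 and 281 CPM in R7 and R9, 962 and 770.0 CPM in DMSO R1 and R3, and 522 to 632 CPM with progesterone.

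The table holds 18 further rows annotated as collagen α chains under placeholder symbols. Only 1 of them, the collagen α1(II) chain-like row, reached 10 estimated counts in a library, with a highest value of 133.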
